A study of Mus musculus with 18 samples.

Results

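Adipocytes read hormones and metabolites through receptors on their surface, and 9 such receptor genes made up the list studied here in visceral fat (WAT). A probe set with a single gene symbol could be assigned to 5 of the 9, out of 19938 genes analysed: Npr1, Ffar2, Ptger3, Ffar4 and Paqr9. Each of the 5 had 1 probe set. The other 4 listed receptors, for catecholamines and adenosine, were not analysed here, so the sets of receptors that drive and restrain lipolysis were incomplete. Among the genes analysed, 1 receptor (Npr1) is known to stimulate lipolysis, 2 (Ffar2 and Ptger3) are known to inhibit it, and 2 (Ffar4 and Paqr9) were not placed on either side.

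Lipolysis, the release of fatty acids from stored triglyceride, is switched on when cyclic nucleotides rise in the adipocyte and activate kinases that phosphorylate hormone-sensitive lipase and perilipin. Receptors coupled to stimulatory G proteins raise cyclic AMP, receptors coupled to inhibitory G proteins lower it, and the natriuretic peptide receptor Npr1 is itself an enzyme that makes cyclic GMP. Insulin is the strongest brake on the process, and streptozotocin (STZ) removes insulin because it destroys pancreatic beta cells. Bezafibrate (BEZ) is a fibrate, a lipid-lowering drug that activates peroxisome proliferator-activated receptors (PPARs).

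Fat was taken from 18 male wildtype C57BL/6N mice aged 5 to 6 months, with 1 array for each mouse. The 7 Con, SD mice were mock-injected with citrate buffer and ate standard diet. The 6 STZ, SD mice received STZ at 65 mg/kg on 5 consecutive days at 10 to 16 weeks of age and ate the same diet. The 5 STZ, BEZ mice received STZ in the same way and, from 2 weeks later, ate chow with BEZ (0.25% or 0.5%) for 8 weeks. The labels do not say which mouse received which BEZ dose, and the methods of the study name only the higher of these concentrations. The methods also describe the STZ dose and the control mice somewhat differently from the labels. STZ models lack of insulin without a defect in the insulin receptor, and the visceral fat was measured as whole tissue.

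The label of fat was set against defining markers. The mean log2 signal of 18 measured white adipocyte markers (of 20 listed) ranged from 11.66 to 12.38 among Con, SD mice. It was 12.19 to 12.37 in STZ, BEZ and spread more widely, from 10.09 to 12.28, in STZ, SD. Within STZ, SD it was lowest in replicate 6 (10.09), followed by replicates 4 (11.17), 3 (11.32) and 2 (11.59). RNA of neighbouring organs was also measured. The mean of 20 pancreas markers was 5.85 to 6.17 in Con, SD, but 13.01 in STZ, SD replicate 6 and 11.02, 9.29, 9.0 and 8.47 in STZ, BEZ replicates 1 to 4. The mean of 13 epididymis markers was 5.55 to 6.22 in STZ, BEZ, whereas it ranged from 6.61 to 12.23 among Con, SD mice and from 5.42 to 12.15 among STZ, SD mice. STZ, SD replicate 6 also stood apart in B cell markers (8.80, with at most 6.25 in the other STZ, SD mice) and T and NK cell markers (7.79, with at most 6.56). Liver markers were 10.69 in STZ, BEZ replicate 5 and at most 8.06 in the other STZ, BEZ mice. Compared with Con, SD, 5 of 10 skeletal muscle markers and 2 of 9 liver markers fell in STZ, SD. The part of these tissues in the receptor values was not tested. In whole tissue, fewer adipocytes and less RNA of a gene in each adipocyte cannot be told apart.

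Promoter windows in the RefSeq table (assembly GRCm38.p6) were found for 4 of the 5 genes, 7 windows in all, and Paqr9 has no entry. The 250 bases before the start of 1 transcript of each gene are shown, because PPARs, which BEZ activates, bind direct repeats of the nuclear receptor core motif AGGTCA. Each is written 5′ to 3′ on the strand of the gene, and capitals mark AGGTCA and the GC box GGGCGG, which Sp1 family factors bind, on either strand (as TGACCT and CCGCCC on the other). The windows are Ffar2 at chr7:30823776-30824025 (minus strand), Ffar4 at chr19:38096829-38097078 (plus strand), Ptger3 at chr3:157566626-157566875 (plus strand) and Npr1 at chr3:90465867-90466116 (minus strand).
Ffar2: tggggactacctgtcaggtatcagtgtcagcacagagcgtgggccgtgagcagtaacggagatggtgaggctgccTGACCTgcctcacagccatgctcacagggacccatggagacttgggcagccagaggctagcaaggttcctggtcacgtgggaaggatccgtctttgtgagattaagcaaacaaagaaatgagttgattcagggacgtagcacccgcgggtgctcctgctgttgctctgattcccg
Ffar4: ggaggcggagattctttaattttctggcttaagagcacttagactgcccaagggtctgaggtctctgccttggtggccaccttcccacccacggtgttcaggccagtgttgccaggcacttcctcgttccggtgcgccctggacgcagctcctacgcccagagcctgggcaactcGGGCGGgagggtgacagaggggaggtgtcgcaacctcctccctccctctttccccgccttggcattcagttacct
Ptger3: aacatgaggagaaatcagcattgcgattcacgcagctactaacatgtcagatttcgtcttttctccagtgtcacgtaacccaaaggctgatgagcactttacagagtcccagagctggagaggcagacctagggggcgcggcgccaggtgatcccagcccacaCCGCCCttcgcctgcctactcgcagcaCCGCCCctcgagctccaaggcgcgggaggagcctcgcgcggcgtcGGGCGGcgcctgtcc
Npr1: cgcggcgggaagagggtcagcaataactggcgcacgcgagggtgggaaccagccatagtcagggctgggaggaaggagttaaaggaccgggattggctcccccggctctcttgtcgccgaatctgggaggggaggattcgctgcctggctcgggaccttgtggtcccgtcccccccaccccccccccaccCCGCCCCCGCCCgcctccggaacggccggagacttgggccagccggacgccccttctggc
AGGTCA occurred 1 time in the Ffar2 window shown and 0 times in the windows of Ffar4, Ptger3 and Npr1, and 4607 of the 32851 windows of the table hold it in the same 250 bases. The GC box occurred 0 times in this Ffar2 window, 1 time in Ffar4, 3 times in Ptger3 and 2 times in Npr1, against 32.7% of all windows with a match. The DR1 element, a direct repeat of AGGTCA with 1 base between the copies, which contains the core motif, and the cyclic AMP response element TGACGTCA were in none of the 7 windows of the 4 genes and in 0.0335% and 1.55% of all windows. These matches describe letters only. Of the other 3 Ffar2 windows, the pair with starts at 30821193 and 30821140, which overlap each other, hold 1 AGGTCA and 1 GC box each.

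In STZ, SD vs Con, SD, 1 of the 5 receptors passed the test (Paqr9, lower), compared with 10.3% of all genes called in either direction (5.82% higher and 4.52% lower). With BEZ, in STZ, BEZ vs STZ, SD, 1 of the 5 passed (Paqr9, higher), compared with 0.707% of all genes (0.682% higher and 0.0251% lower). Between STZ, BEZ and Con, SD, 1 of the 5 passed (Ffar2, higher), compared with 5.95% of all genes (4.57% higher and 1.38% lower). The stimulating receptor Npr1, the inhibiting receptor Ptger3 and Ffar4 passed in none of the 3 comparisons in this fit. A gene was called at an adjusted p under 0.10 in limma, with Benjamini-Hochberg adjustment over all genes. The 3 comparisons share arrays, so a value in 1 is not independent of the others. The plot of the receptors by array shows all values.

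**Figure D1:**
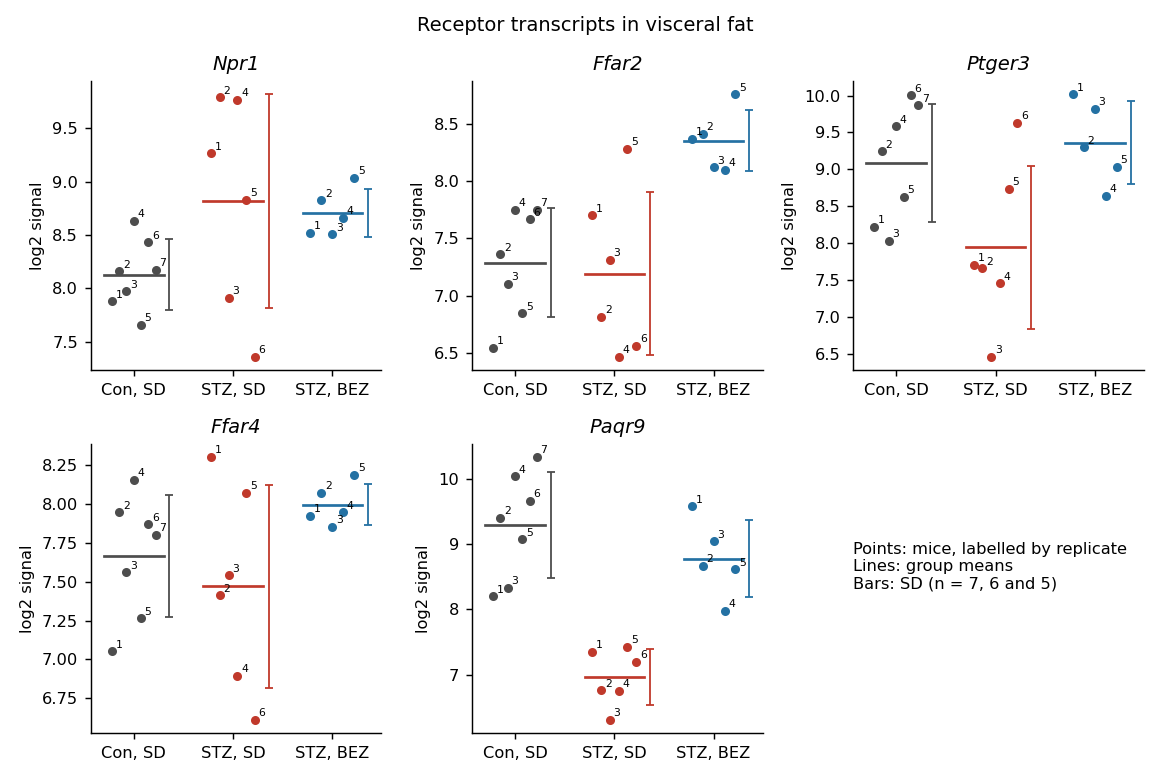
Log2 signal of the 5 receptor genes (y axis, RMA log2 signal) in visceral fat of Con, SD (n = 7), STZ, SD (n = 6) and STZ, BEZ (n = 5); each point is 1 mouse, labelled with its replicate number, horizontal lines are group means and bars are ± 1 SD. Paqr9 of all 6 STZ, SD mice lay below the other groups, and Ffar2 of all 5 STZ, BEZ mice lay above Con, SD.

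Npr1 encodes the guanylyl cyclase receptor for atrial and brain natriuretic peptides, through which the heart stimulates lipolysis. Its log2 signal in Con, SD ran from 7.66 over a median of 8.16 to 8.63. In STZ, SD the values of replicates 1 to 6 were 9.26, 9.79, 7.91, 9.76, 8.83 and 7.36. In STZ, BEZ they were 8.52, 8.82, 8.50, 8.66 and 9.03. Thus 4 of 6 STZ, SD mice were above every Con, SD mouse, while replicates 3 and 6 were within or below the control range, and the STZ, BEZ mice lay close together.

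The group means of Npr1 were 8.13 ± 0.33 (SD, n = 7), 8.82 ± 1.00 (n = 6) and 8.71 ± 0.22 (n = 5) in Con, SD, STZ, SD and STZ, BEZ. STZ, SD minus Con, SD was 0.69 on the log2 scale (95% interval 0.0059 to 1.37, SE 0.32, adjusted p = 0.242). Replicate 6 of STZ, SD decided this result: without it, the difference was 0.98 (adjusted p = 0.0321). This array had the lowest adipocyte marker mean, the highest pancreas marker mean (13.01) and the highest B cell and T and NK cell means. Endothelial markers averaged 9.81, 9.90, 8.58, 9.70, 9.82 and 8.94 in STZ, SD replicates 1 to 6. Their range in Con, SD was 8.83 to 9.90. The part of these cells and tissues in the Npr1 values was not tested. With the adipocyte marker mean as a covariate the difference was 1.16 (adjusted p = 0.0359). It also passed with array weights (0.94, adjusted p = 0.0194) and with pancreas and epididymis means as covariates (0.74, adjusted p = 0.0591). Both settings also called more of all genes in this comparison than the main fit (1161 higher and 902 lower). The calls were 2041 and 1333, and 1930 and 1419. Without STZ, SD replicate 6 they were 1903 and 994. STZ, BEZ minus STZ, SD was −0.11 (95% interval −0.85 to 0.63, adjusted p = 0.954), and the sign turned when STZ, SD replicate 2 or 4 was left out (0.08 each). With the adipocyte marker mean as a covariate it was −0.74 (adjusted p = 0.999), and with array weights −0.47 (adjusted p = 0.423). STZ, BEZ minus Con, SD was 0.58 (95% interval −0.14 to 1.30, adjusted p = 0.390). The same difference passed in a fit on only the arrays of these groups (adjusted p = 0.0415), in SAM (false discovery rate 0.00243) and with pancreas and epididymis means as covariates (0.81, adjusted p = 0.0980). These settings also called more of all 19938 genes: 1984 higher and 836 lower, 3042 and 2134, and 2096 and 1342. The main fit called 912 and 275. Leaving out the 5 arrays with a pancreas marker mean above 8, a choice made after the data were seen, kept 1 STZ, BEZ array, for which the spread of the other groups was assumed, and gave 0.90 (adjusted p = 0.579).

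The natriuretic peptide system holds a second receptor in fat, Npr3, which lacks the cyclase and clears the peptides. Npr3 averaged 11.83 ± 0.47 in the control mice and 9.22 ± 1.58 in STZ, SD, a difference of −2.61 (SE 0.57, adjusted p = 0.0160). Its values in STZ, SD were 9.95, 8.51, 9.48, 8.11, 11.85 and 7.43, so that replicate 5 was within the control range of 11.29 to 12.29 and the other 5 were below it. In STZ, BEZ it was 11.44, 10.45, 11.80, 10.26 and 9.16. Npr1 and Npr3 thus had differences of opposite sign in STZ, SD vs Con, SD, of which that of Npr3 passed the test. Whether the 2 differences differ from each other was not tested.

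Ffar2 encodes a receptor for the short-chain fatty acids acetate and propionate that lowers cyclic AMP in adipocytes through inhibitory G proteins. In Con, SD its log2 signal ran from 6.55 over a median of 7.36 to 7.75. The STZ, SD values were 7.70, 6.82, 7.31, 6.47, 8.28 and 6.56 in replicates 1 to 6. The STZ, BEZ values were 8.37, 8.41, 8.12, 8.10 and 8.76. All 5 STZ, BEZ mice were above every Con, SD mouse, and above 5 of the 6 STZ, SD mice, since STZ, SD replicate 5 fell within their range. Of all genes, 5.17% were higher without overlap in STZ, BEZ than in Con, SD.

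Ffar2 averaged 7.29 ± 0.47 (SD, n = 7) in Con, SD, 7.19 ± 0.71 (n = 6) in STZ, SD and 8.35 ± 0.27 (n = 5) in STZ, BEZ. It was 1.06 higher in STZ, BEZ than in Con, SD, or 2.09-fold (95% interval 0.45 to 1.67, SE 0.29, adjusted p = 0.0543). The call was lost without Con, SD replicate 5 (0.99, adjusted p = 0.104) and without STZ, BEZ replicate 1 (1.06, adjusted p = 0.104), 2 (1.05, adjusted p = 0.137) or 5 (0.96, adjusted p = 0.171). Without the 5 arrays rich in pancreas markers it was 1.47 (adjusted p = 0.333).

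Against untreated diabetic mice, Ffar2 of STZ, BEZ differed by 1.16 (95% interval 0.53 to 1.79, SE 0.30, adjusted p = 0.123) and did not pass. It passed without STZ, SD replicate 1 (1.26, adjusted p = 0.0486) or replicate 5 (1.38, adjusted p = 0.0367), which were the highest of their group. The same difference passed in SAM, the test of the methods (false discovery rate 0.0731), among genes above the median signal (adjusted p = 0.0668) and with pancreas and epididymis means as covariates (1.25, adjusted p = 0.0307). Calls over all genes moved as well, from 136 higher and 5 lower in the main fit. They were 659 and 46 without replicate 1, 324 and 59 without replicate 5, and 236 and 42 in SAM. With pancreas and epididymis covariates they were 1246 and 759. Among the 9969 genes above the median signal, 251 and 23 were called. With the adipocyte marker mean as a covariate the Ffar2 difference was 0.48 (adjusted p = 0.999), and 5 and 1 of all genes were called. STZ, SD minus Con, SD was −0.10 (95% interval −0.68 to 0.48, adjusted p = 0.886), and the sign turned without STZ, SD replicate 4 (0.05) or 6 (0.03). In the order of group means STZ, SD and Con, SD were therefore neighbours that did not differ beyond their spread, with STZ, BEZ above both, called against Con, SD and, against STZ, SD, only under the settings named here.

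Ptger3 encodes the EP3 receptor for prostaglandin E2, which also couples to inhibitory G proteins and restrains lipolysis. Its log2 signal in Con, SD ran from 8.03 over a median of 9.24 to 10.00. The STZ, SD values were 7.71, 7.66, 6.46, 7.46, 8.74 and 9.63, and the STZ, BEZ values were 10.02, 9.30, 9.82, 8.64 and 9.03. Replicates 1 to 4 of STZ, SD were below every Con, SD and STZ, BEZ mouse, whereas replicates 5 and 6 lay among them.

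Mean Ptger3 was 9.08 ± 0.80 (SD, n = 7) in Con, SD, 7.94 ± 1.10 (n = 6) in STZ, SD and 9.36 ± 0.56 (n = 5) in STZ, BEZ. STZ, SD minus Con, SD was −1.14 (95% interval −2.08 to −0.20, SE 0.45, adjusted p = 0.147). The highest STZ, SD mouse, replicate 6, had the pancreas marker mean of 13.01, and without it the difference was −1.48 (adjusted p = 0.0337). It also passed without Con, SD replicate 3 (−1.32, adjusted p = 0.0982), the lowest of the controls and the one with the highest epididymis marker mean (12.23). With the pancreas and epididymis marker means as covariates it was −1.68 (adjusted p = 0.00861). Among these groups the pancreas mean was high only in replicate 6, so this fit is not independent of leaving that array out. Ptger3 passed as well with array weights (−1.34, adjusted p = 0.0380), among genes above the median signal (adjusted p = 0.0949) and in SAM (false discovery rate 0.0812). It did not pass with the adipocyte covariate (−1.17, adjusted p = 0.196) or quantile normalization (−1.10, adjusted p = 0.170). Nor did it with the replicate block (−1.01, adjusted p = 0.205) or in a fit on only these groups (adjusted p = 0.239). Of the 18 fits with an array left out, 2 passed. Array weights, the pancreas and epididymis covariates and SAM also called more of all genes than the main fit (1161 higher and 902 lower). The calls were 2041 and 1333, 1930 and 1419, and 1620 and 1353. They were 1903 and 994 without STZ, SD replicate 6, and 1027 and 942 without Con, SD replicate 3. The part of these tissues in the values of Ptger3 was not tested.

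Ptger3 differed by 1.42 in STZ, BEZ vs STZ, SD (95% interval 0.40 to 2.44, SE 0.49, adjusted p = 0.288). It passed with array weights (1.51, adjusted p = 0.0689), and with pancreas and epididymis means as covariates it was 0.74 (SE 0.37, adjusted p = 0.269). STZ, BEZ minus Con, SD was 0.28 (95% interval −0.71 to 1.27, adjusted p = 0.811). In STZ, BEZ the highest Ptger3 (10.02) was in replicate 1, which also had the highest pancreas marker mean of its group (11.02), and replicate 5, with a pancreas mean of 5.95, had 9.03. With pancreas and epididymis means as covariates STZ, BEZ minus Con, SD turned to −0.94 (adjusted p = 0.163). The pancreas mean was 8.47 to 11.02 in STZ, BEZ replicates 1 to 4 and 5.85 to 6.17 in Con, SD. In comparisons with STZ, BEZ this covariate and the group therefore cannot be fully told apart.

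Ffar4 encodes the receptor for long-chain fatty acids, omega-3 fatty acids among them, which is abundant in mature adipocytes. In Con, SD it ran from 7.05 over a median of 7.80 to 8.16. The STZ, SD values were 8.30, 7.41, 7.54, 6.89, 8.07 and 6.61, and the STZ, BEZ values were 7.93, 8.07, 7.85, 7.95 and 8.19. STZ, SD covered the range of both other groups, and STZ, BEZ had a narrow range in its upper part.

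Ffar4 averaged 7.67 ± 0.39 (SD, n = 7), 7.47 ± 0.65 (n = 6) and 8.00 ± 0.13 (n = 5) in Con, SD, STZ, SD and STZ, BEZ. No comparison passed. STZ, SD minus Con, SD was −0.19 (95% interval −0.70 to 0.31, adjusted p = 0.709), STZ, BEZ minus STZ, SD was 0.52 (95% interval −0.02 to 1.07, adjusted p = 0.518) and STZ, BEZ minus Con, SD was 0.33 (95% interval −0.20 to 0.86, adjusted p = 0.514). With the adipocyte marker mean as a covariate, the first turned to 0.32 and the second to −0.17.

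Paqr9 belongs to the progestin and adipoQ receptor family, whose best known members are the adiponectin receptors. Its log2 signal in Con, SD ran from 8.20 over a median of 9.40 to 10.34. The STZ, SD values were 7.35, 6.76, 6.31, 6.75, 7.43 and 7.20. The STZ, BEZ values were 9.58, 8.67, 9.05, 7.98 and 8.61. Every STZ, SD mouse lay below every mouse of both other groups, as did 0.487% of all genes in STZ, SD vs Con, SD. Of all genes, 1.04% were higher without overlap in STZ, BEZ vs STZ, SD.

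The mean of Paqr9 was 9.30 ± 0.81 (SD, n = 7) in Con, SD, 6.97 ± 0.43 (n = 6) in STZ, SD and 8.78 ± 0.59 (n = 5) in STZ, BEZ. It was 5.03-fold lower in STZ, SD than in Con, SD (95% interval of the log2 difference −3.04 to −1.62, adjusted p = 0.00514). The call held without any 1 of the 18 arrays, with differences of −2.51 to −2.16. With the adipocyte marker mean or the pancreas and epididymis means as covariates, or without the 5 arrays rich in pancreas markers, the call also held. Levels were 3.52-fold higher in STZ, BEZ than in STZ, SD (95% interval 1.04 to 2.59 on the log2 scale, adjusted p = 0.0621). STZ, BEZ minus Con, SD was −0.52 (95% interval −1.26 to 0.23, adjusted p = 0.468), so these neighbours in the order of levels did not differ beyond their spread.

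The rise of Paqr9 with BEZ was close to the threshold. It lost its call when STZ, SD replicate 2 (1.77, adjusted p = 0.134), 3 (1.68, 0.111) or 4 (1.77, 0.180) was left out. The same held for STZ, BEZ replicate 1 (1.61, adjusted p = 0.182), 2 (1.84, 0.185), 3 (1.75, 0.169) or 5 (1.86, 0.114). Fewer of all genes were called in these fits than in the main fit (136 higher and 5 lower). The calls were 17 and 1, 43 and 1, and 14 and 0 without STZ, SD replicates 2, 3 and 4. They were 12 and 0, 11 and 0, 20 and 0, and 33 and 2 without STZ, BEZ replicates 1, 2, 3 and 5. Without STZ, BEZ replicate 4, where Paqr9 kept its call, they were 14 and 0. With the adipocyte marker mean as a covariate the difference was 1.43 (adjusted p = 0.721). Without the arrays rich in pancreas markers, which kept 1 STZ, BEZ array, it was 1.69. All of these differences had the same sign.

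**Figure D2:**
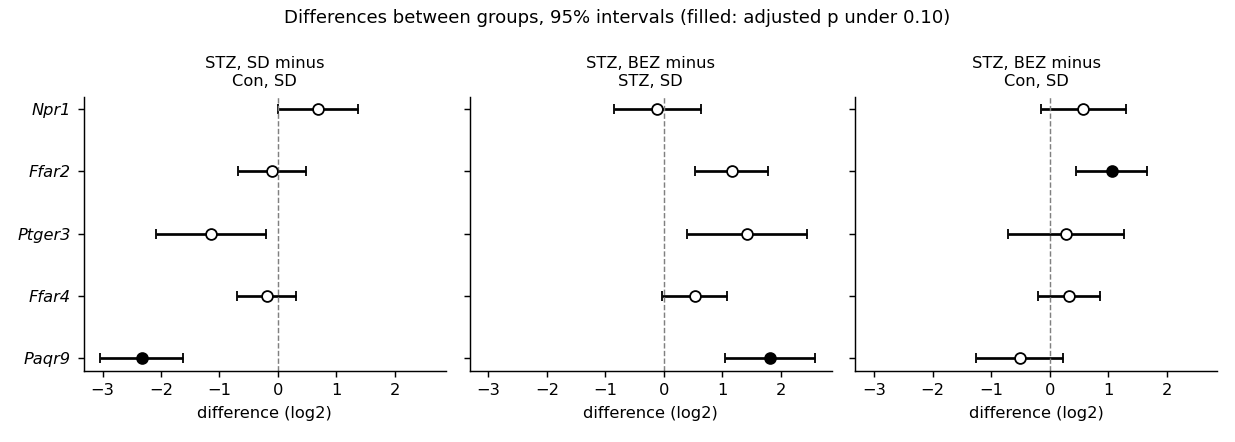
Differences of group means (x axis, log2 signal) of the 5 receptors in the 3 comparisons, with 95% intervals from limma as bars and filled points for an adjusted p under 0.10. Filled points are Paqr9 at −2.33 and 1.81 in the left and middle panels and Ffar2 at 1.06 in the right panel.

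The genes most like Paqr9 over the 18 arrays were Mtarc1 (Pearson r 0.956), Unc119 (0.927) and Odf3l1 (0.927). These values describe arrays of 3 groups pooled, so that differences between groups enter them.

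Among individual mice of 1 group, the receptors were next compared with the adipocyte marker mean and with each other, by exact two-sided permutation tests in Con, SD (n = 7) and STZ, SD (n = 6), 30 relations in all with Benjamini-Hochberg adjustment. Ffar4 followed the adipocyte markers in both groups: r was 0.938 in Con, SD (exact permutation p = 0.00377, adjusted 0.0286) and 0.931 in STZ, SD (exact permutation p = 0.00833, adjusted 0.0409). Without the 2 arrays farthest from the median of the marker mean, r was 0.827 and 0.926, and no test was run on such reduced sets. Spearman's rho was 0.857 and 0.886, and neither passed after adjustment (exact permutation p = 0.0238 and 0.0333, adjusted 0.111 each).

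Ffar2 and Npr1 also followed the adipocyte markers in Con, SD. For Ffar2, r was 0.937 (exact permutation p = 0.00476, adjusted 0.0286), rho was 0.714 (exact permutation p = 0.0881, adjusted 0.155) and r without the 2 farthest arrays was 0.856. For Npr1, r was 0.904 (exact permutation p = 0.00139, adjusted 0.0286), rho was 0.929 (exact permutation p = 0.00675, adjusted 0.101) and r without the 2 farthest arrays was 0.781. In STZ, SD the corresponding r was 0.798 for Ffar2 (exact permutation p = 0.0486, adjusted 0.105) and 0.580 for Npr1 (exact permutation p = 0.224, adjusted 0.335). For Npr1, replicates 2 and 4 combined adipocyte marker means of 11.59 and 11.17, below every Con, SD mouse, with the highest Npr1 of all mice (9.79 and 9.76).

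Paqr9 did not follow the adipocyte markers past adjustment in Con, SD (r 0.788, rho 0.643, exact permutation p = 0.0534 and 0.139, adjusted 0.107 and 0.231) or STZ, SD (r 0.277, rho 0.600, exact permutation p = 0.613 and 0.242, adjusted 0.681 and 0.345). Without the 2 farthest of the 7 and 6 arrays, its r was 0.850 in Con, SD and 0.845 in STZ, SD. These r rest on few mice and were not tested. STZ, SD replicates 1 and 5 had marker means of 12.22 and 12.28, within the control range, and Paqr9 of 7.35 and 7.43, below every Con, SD mouse. For Ptger3, r was 0.864 in Con, SD (exact permutation p = 0.0280, adjusted 0.0699) and −0.344 in STZ, SD (exact permutation p = 0.511, adjusted 0.639). Its r without the 2 farthest arrays was 0.941 and 0.521. Most pairs of receptors moved together in Con, SD, and r was positive in all 10 pairs. Con, SD replicates 1, 3 and 5 were the lowest of their group in all 5 receptors. Their adipocyte marker means were also the lowest (11.72, 11.91 and 11.66, with at least 12.28 in the others). Replicates 3 and 5 had epididymis means of 12.23 and 12.19, and replicate 1 the highest smooth and skeletal muscle means (10.85 and 8.55). The part of these tissues in the relations was not tested. Past adjustment at 0.10 were 6 pairs by r in Con, SD. Ffar2 and Ffar4 had r 0.925 and rho 0.750 (exact permutation p = 0.00317 and 0.0663, adjusted 0.0286 and 0.133), with r 0.668 without the 2 farthest arrays. For Ffar2 and Paqr9, r was 0.889 and rho 0.964 (exact permutation p = 0.0101 and 0.00278, adjusted 0.0409 and 0.0833), with r 0.891 without the 2 farthest arrays, and for Ffar4 and Npr1, r was 0.874 and rho 0.857 (exact permutation p = 0.0109 and 0.0238, adjusted 0.0409 and 0.111), with r 0.796. Ffar2 also passed with Npr1 (r 0.840, rho 0.857, exact permutation p = 0.0193 and 0.0238, adjusted 0.0525 and 0.111) and with Ptger3 (r 0.878, rho 0.786, exact permutation p = 0.0159 and 0.0480, adjusted 0.0525 and 0.131), with r 0.849 and 0.939 without the 2 farthest arrays. Paqr9 and Ptger3 had the highest r of the pairs (r 0.930, rho 0.857, exact permutation p = 0.00397 and 0.0238, adjusted 0.0286 and 0.111), and r was 0.788 without the 2 farthest arrays. In STZ, SD 1 pair passed, Ffar2 and Ffar4 (r 0.891, rho 0.886, exact permutation p = 0.0181 and 0.0333, adjusted 0.0525 and 0.111), with r 0.963 without the 2 farthest arrays. For Paqr9 and Ptger3, r there was 0.759 (exact permutation p = 0.0764, adjusted 0.127). Differences between the groups in these relations were not tested.

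**Figure D3:**
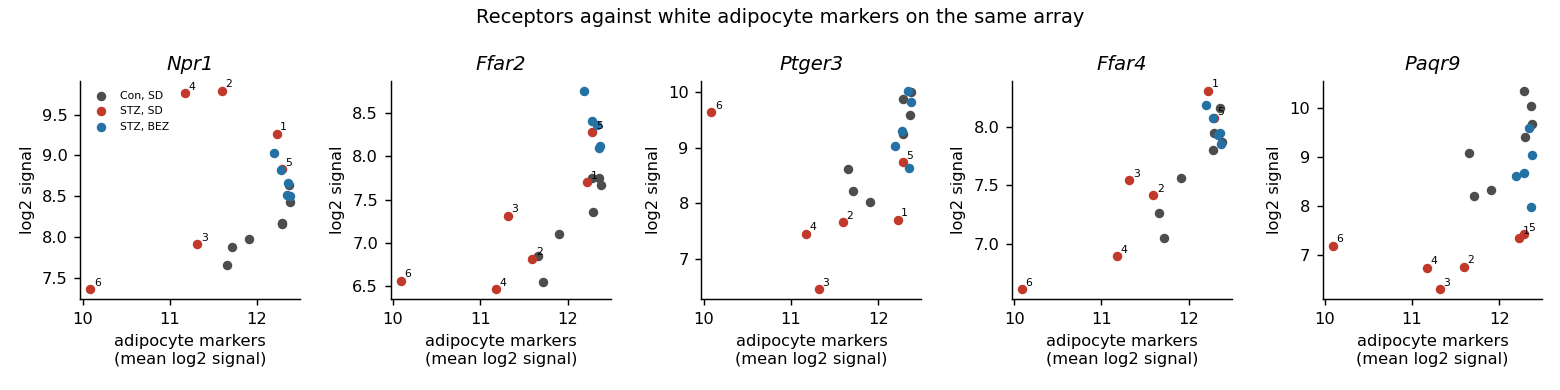
Log2 signal of each receptor (y axis) against the mean log2 signal of 18 white adipocyte markers on the same array (x axis); points are mice, coloured by group, and STZ, SD mice carry their replicate number. Ffar4 rose with the markers in both Con, SD (r 0.938) and STZ, SD (r 0.931), while Paqr9 of STZ, SD replicates 1 and 5 was low at marker means of 12.22 and 12.28.

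Relatives of the 5 receptors were examined as a list of 30 genes (other prostanoid, adrenergic, adenosine, free fatty acid, natriuretic peptide and PAQR receptors), of which 23 were measured. In STZ, SD vs Con, SD, 0 rose and 5 fell, with a median difference of −0.08, compared with −0.03 over all genes. Apart from Npr3, these included 3 further PAQR family members: Paqr7, a membrane progestin receptor (−0.88, SE 0.16, adjusted p = 0.00859), Mmd, expressed in macrophages and other cells (−1.54, SE 0.40, adjusted p = 0.0340), and Paqr4 (−0.55, SE 0.16, adjusted p = 0.0521). With BEZ, 1 rose and 0 fell in STZ, BEZ vs STZ, SD, namely Paqr4 (0.84, SE 0.17, adjusted p = 0.0639), with a median of 0.05 against 0.01 over all genes. Against Con, SD, 1 rose and 0 fell in STZ, BEZ, which was the adiponectin receptor Adipor2 (0.90, SE 0.24, adjusted p = 0.0530).

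Of 22 other adipocyte hormone and metabolite receptors, 21 were measured. Of these, 3 rose and 3 fell in STZ, SD vs Con, SD, with a median difference of −0.05. The oxytocin receptor Oxtr fell by 2.05 (SE 0.30, adjusted p = 0.00514) and the apelin receptor Aplnr, known from endothelial cells, fell by 0.97 (SE 0.27, adjusted p = 0.0456). The leptin receptor Lepr rose by 1.10 (SE 0.29, adjusted p = 0.0372) and the insulin receptor Insr by 0.59 (SE 0.11, adjusted p = 0.00784). Lepr was highest in STZ, SD replicate 6 (8.25), the array rich in pancreas markers. In replicates 3 and 5 it was 6.24 and 6.32, within the control range of 5.62 to 6.44. Its Con, SD mean of 5.94 was below the array medians of 6.76 to 6.87. Every STZ, SD value of Oxtr (6.05 to 8.00) was below every Con, SD value (8.07 to 9.41).

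In BEZ-treated mice Oxtr was also low. Its STZ, BEZ values of 7.00, 6.47, 7.16, 6.54 and 6.00 were all below the control range, and STZ, BEZ minus Con, SD was −2.22 (SE 0.32, adjusted p = 0.00211).

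The hydroxycarboxylic acid receptors Hcar1 and Hcar2 were among the receptors higher in STZ, BEZ. Like Ffar2 they bind small organic acids, couple to inhibitory G proteins and restrain lipolysis. Hcar2, the receptor for beta-hydroxybutyrate and niacin, was the 1 receptor of this list that rose in STZ, BEZ vs STZ, SD (1.17, SE 0.27, adjusted p = 0.0879), while 0 fell and the median was 0.21. Its values were 5.83 to 6.69 in Con, SD and 7.64, 6.44, 6.24, 5.94, 7.38 and 6.02 in STZ, SD. In STZ, BEZ they were 7.73, 8.21, 7.53, 7.78 and 7.65. All STZ, BEZ values were above the control range, and STZ, SD replicates 1 and 5, which were also the highest for Ffar2, came close to or into the STZ, BEZ range.

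Of the same 21 receptors, 4 rose and 1 fell in STZ, BEZ vs Con, SD, with a median of 0.25. The 4 included Hcar2 (1.45, SE 0.27, adjusted p = 0.00958), the lactate receptor Hcar1 (1.38, SE 0.37, adjusted p = 0.0541) and Insr (0.64, SE 0.11, adjusted p = 0.00864). The adipocyte marker mean was 12.19 to 12.37 in STZ, BEZ and 11.66 to 12.38 in Con, SD, and its part in these differences was not tested.

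**Figure D4:**
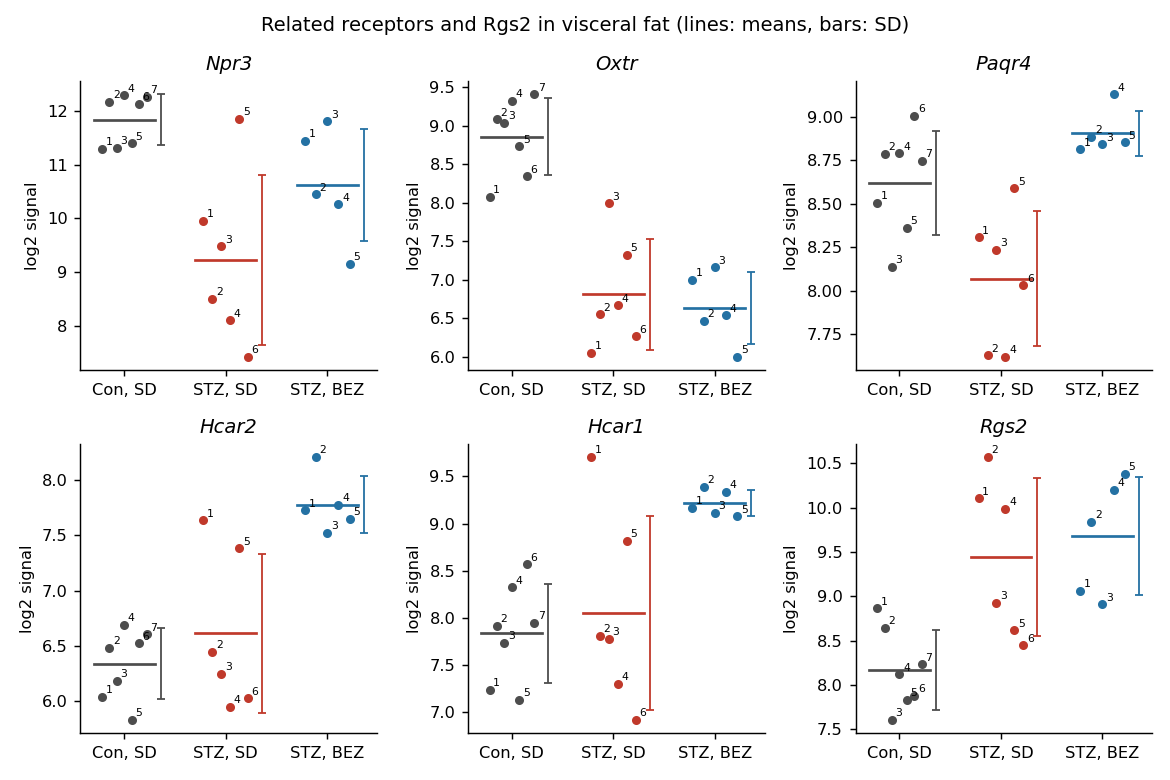
Log2 signal (y axis) of 5 related receptors and of Rgs2 in each mouse, with group means as lines and ± 1 SD as bars (n = 7, 6 and 5) and replicate numbers beside the points. Npr3, Oxtr and Paqr4 fell in STZ, SD vs Con, SD and, of these, Paqr4 rose in STZ, BEZ vs STZ, SD, while Hcar2 and Hcar1 were higher in STZ, BEZ than in Con, SD.

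Downstream of the receptors, G proteins, adenylyl cyclases and desensitising proteins (17 of 20 measured) had 1 gene that rose and 1 that fell in STZ, SD vs Con, SD, with a median of 0.02. Rgs2, which shortens G protein signals, rose by 1.27 (SE 0.35, adjusted p = 0.0441), and the inhibitory G protein subunit Gnai2 fell by 0.32 (SE 0.10, adjusted p = 0.0782). With BEZ, 0 of the 17 rose or fell in STZ, BEZ vs STZ, SD by limma, 4 had an unadjusted p under 0.05 and SAM, the test of the methods, called 2. The cyclases Adcy6 (0.44, unadjusted p = 0.000746) and Adcy5 (0.98, unadjusted p = 0.00115) had the smallest p-values in limma, and the median was 0.10. Compared with Con, SD, 3 rose and 0 fell in STZ, BEZ: Adcy6 (0.51, adjusted p = 0.0139), Rgs2 (1.51, adjusted p = 0.0362) and Adcy3 (0.61, adjusted p = 0.0785).

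Phosphodiesterases and cyclic nucleotide kinases (16 of 17 measured) had no call in STZ, SD vs Con, SD or in STZ, BEZ vs STZ, SD in limma. In these comparisons 2 and 3 genes had an unadjusted p under 0.05, and SAM called 0 and 1. The smallest p-values belonged to Prkar2b, a regulatory subunit of protein kinase A that is abundant in fat (−0.96, unadjusted p = 0.0286), and Pde3a (0.58, unadjusted p = 0.0364) in the first, and to the kinase anchor Akap1 (0.40, unadjusted p = 0.00432) and Prkar2b (1.39, unadjusted p = 0.00545) in the second. Compared with Con, SD, 1 gene of the list rose in STZ, BEZ, which was Akap1 (0.61, SE 0.12, adjusted p = 0.0117).

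At the lipid droplet, where these signals end, all 16 listed lipases and regulators were measured. In STZ, SD vs Con, SD, 0 rose and 4 fell, with a median of −0.46. These were the droplet coat proteins Plin3 (−0.34, adjusted p = 0.0263) and Plin2 (−0.92, adjusted p = 0.0877), the lipase inhibitor Hilpda (−0.47, adjusted p = 0.0812) and monoacylglycerol lipase Mgll (−0.84, adjusted p = 0.0925). BEZ-treated mice had 2 rises in STZ, BEZ vs STZ, SD, Plin5 (0.52, adjusted p = 0.0594) and Cidea (1.65, adjusted p = 0.0641), 0 fell, and the median was 0.75. Cidea is also a brown adipocyte marker, and the mean of 10 such markers was 7.10 to 7.60 in STZ, BEZ, above every Con, SD mouse (6.36 to 7.02) and every STZ, SD mouse (6.31 to 6.92). Of the 10, 2 rose against STZ, SD and 4 rose against Con, SD, and their part in the receptor values was not tested. Compared with Con, SD, 3 rose and 0 fell in STZ, BEZ: Cidea (1.89, adjusted p = 0.00864), Plin5 (0.42, adjusted p = 0.0296) and the lipase co-activator Abhd5 (1.06, adjusted p = 0.0469). Several of this list are adipocyte markers themselves, and the adipocyte marker mean of STZ, SD replicates 2, 3, 4 and 6 was below the control range.

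Genes that make ligands of the listed receptors or break them down (12 of 14 measured) had 0 rises and 2 falls in STZ, SD vs Con, SD, with a median of −0.03. Ptges, which makes the Ptger3 ligand prostaglandin E2, fell by 1.29 (SE 0.40, adjusted p = 0.0675), and Maoa, which degrades catecholamines, fell by 0.57 (SE 0.19, adjusted p = 0.0930). In the other 2 comparisons 0 were called in limma or in SAM, and 1 and 0 had an unadjusted p under 0.05. The smallest p-values in limma in STZ, BEZ vs STZ, SD belonged to Entpd1 (−0.36, unadjusted p = 0.0261) and Ptges (0.78, unadjusted p = 0.0917, adjusted p = 0.584). In STZ, BEZ vs Con, SD they belonged to Maoa (−0.40, unadjusted p = 0.0643) and Ptgs2 (−1.60, unadjusted p = 0.122). Con, SD replicates 1 and 2 had the highest Ptgs2 (12.36 and 12.61) and Ptges (11.34 and 11.05) of their group.

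PPAR targets (17 of 20 measured) stood beside the receptors as the transcripts through which BEZ is known to act. Of these, 6 rose and 0 fell in STZ, BEZ vs STZ, SD, with a median of 0.83. They included the beta-oxidation enzyme Hadha (0.72, adjusted p = 0.0107), the carnitine carrier Slc25a20 (1.21, adjusted p = 0.0642), Ucp3 (1.49, adjusted p = 0.0653) and the thioesterase Acot2 (0.94, adjusted p = 0.0662). Diabetic mice had 2 rises and 2 falls in STZ, SD vs Con, SD (Vnn1 0.88 and Pdk4 0.95, Ucp3 −1.16 and Plin2 −0.92), with a median of 0.11. Compared with Con, SD, 10 rose and 0 fell in STZ, BEZ, with a median of 0.88, and Hadha (0.83), Pdk4 (2.10), Acot2 (1.2) and Vnn1 (1.55) had the smallest adjusted p.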

How the data were processed

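Visceral fat of 18 mice was hybridised to Affymetrix Mouse Gene 1.0 ST arrays, with biotin-labelled RNA extracted by the miRNeasy method. Per the labels and the methods of the study, the authors used RMA as run by Expression Console 1.2, which yields signals on the log2 scale, and deposited these for 35556 probe sets (array medians 6.76 to 6.87). RMA quantile normalization sets the arrays to a common distribution, so that a large amount of RNA from another tissue on an array can lower the values of fat genes there. The genome build is not given in the sources used here.

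Of the probe sets, 21789 had a single gene symbol in the platform table, 1621 had several and 12146 had none here. The probe set with the highest mean was kept for each of 19938 genes, and symbols were updated through RefSeq for 19856. No filter on low values was applied, and no detection level is given with the deposited signals. The number of arrays limits the precision, and the limma p-values set a difference of group means against the spread between mice.

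Groups were compared in 1 limma 3.58.1 fit (R 4.3.3) over all arrays, with Benjamini-Hochberg adjustment over all genes and a threshold of 0.10, after the false discovery rate of 10% that the methods used with SAM. SAM with 100 permutations (seed 1), other thresholds, filters, normalizations, weights, covariates, blocks and left-out arrays were alternatives. The fit was tested on simulated data. Correlations used exact permutation in scipy 1.17.1. The members, gene lists and tests were chosen with earlier results of these data known. The text names all members analysed, up to 4 called genes of each list and comparison by adjusted p (or 2 by p where none was called), and the 3 genes most like a receptor called in either of the first 2 comparisons (predicted genes and receptors of the list left out). Mc5r, Ptgfr, Sucnr1 and Npy1r were called but fall outside this rule.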

Additional observations from a re-analysis of the deposited data

How the results depend on the processing

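The fall of Paqr9 in STZ, SD vs Con, SD kept its direction and its call in all 18 fits with an array left out and under all 14 other settings (−2.61 to −2.05). The number of receptors called in this comparison, 1 of 5, became 2 with genes above the median signal, with the adipocyte covariate and in SAM, and 3 with array weights, with pancreas and epididymis covariates and without the 5 arrays rich in pancreas markers. It ranged from 1 to 3 with arrays left out. In this comparison the main fit called 1161 higher and 902 lower of all 19938 genes. The calls were 2041 and 1333 with array weights, 1930 and 1419 with pancreas and epididymis covariates, and 1620 and 1353 in SAM. They were 1903 and 994 without STZ, SD replicate 6, and 1027 and 942 without Con, SD replicate 3. With the adipocyte covariate 1854 were called higher, and fewer were called lower than in the main fit. Of the 9969 genes above the median signal, 1179 and 1004 were called. Leaving out the arrays rich in pancreas markers kept 1 STZ, BEZ array, so no count from it is given for the comparisons with STZ, BEZ. For STZ, BEZ vs STZ, SD the number 1 became 0 at an adjusted p under 0.05, with the replicate block and with the adipocyte covariate. The number became 2 with genes above the median signal, with array weights, with pancreas and epididymis covariates and in SAM. It ranged from 0 to 2 with arrays left out. Over all 19938 genes, the main fit called 136 higher and 5 lower here. The calls were 1246 and 759 with pancreas and epididymis covariates, 343 and 35 with array weights, and 236 and 42 in SAM. They were 5 and 1 with the adipocyte covariate, and 2 and 0 with the replicate block. Among the 9969 genes above the median signal, 251 and 23 were called. For STZ, BEZ vs Con, SD the number 1 became 0 at an adjusted p under 0.05 and with the replicate block. The number became 2 with only the groups compared, with pancreas and epididymis covariates and in SAM. It ranged from 0 to 1 with arrays left out. Over all 19938 genes, the main fit called 912 higher and 275 lower here. The calls were 1984 and 836 with only the groups compared, and 2096 and 1342 with pancreas and epididymis covariates. They were 370 and 229 with the replicate block. The cause of these moves was not tested. SAM called more genes of the related lists in STZ, BEZ vs Con, SD than limma did: 8 relatives (limma 1), 9 other receptors (5), 9 G proteins and cyclases (3), 8 phosphodiesterases and kinases (1) and 11 lipases and regulators (3). It also called more of all 19938 genes there: 3042 higher and 2134 lower, against 912 and 275 in limma.

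Some differences that had not passed turned in sign. In STZ, SD vs Con, SD, Ffar2 was 0.40 and Ffar4 0.32 with the adipocyte covariate, and Ffar2 was 0.0277 without the arrays rich in pancreas markers and −0.32 to 0.047 with arrays left out. In STZ, BEZ vs STZ, SD, Ffar4 was −0.17 with the adipocyte covariate, and Npr1 was 0.0734 with pancreas and epididymis covariates and −0.40 to 0.0832 with arrays left out. In STZ, BEZ vs Con, SD, Ptger3 was −0.94 with pancreas and epididymis covariates and −0.0522 without the arrays rich in pancreas markers.

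Replicate numbers are shared by the groups. The correlation of deviations between arrays of the same number was −0.358 to 0.700. It was highest for replicate 3 of Con, SD and STZ, SD, whose epididymis marker means were 12.23 and 12.15. Arrays of different numbers were not compared, so these values cannot decide whether the arrays were paired. With the replicate block, Paqr9 was 1.89 in STZ, BEZ vs STZ, SD (adjusted p = 0.336) and Ffar2 was 1.12 in STZ, BEZ vs Con, SD (adjusted p = 0.138), and the number of receptors called was 0 in both. In STZ, SD vs Con, SD the block left the number at 1.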
